A study of Mus musculus with 6 samples.

Results

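The genes described here are 10 transcription factor genes of the naive pluripotency network of mouse embryonic stem cells: Pou5f1, Sox2, Nanog, Klf2, Klf4, Klf5, Esrrb, Tfcp2l1, Tbx3 and Zfp42. They were taken by gene symbol from a deposited expression table of 54532 genes, and each symbol matched 1 row. RNA was measured in 6 libraries of haploid embryonic stem cells of strain 129SV, cells that carry a single chromosome set. Of these, 3 libraries came from wild-type (WT) haploid cells and 3 from haploid cells with the genotype given as P53 -, whose sample titles read P53ki and which are called p53-deficient here. The series asks how inhibition of apoptosis bears on the return of such cells to the diploid state, and the RNA comparison sets p53-deficient against WT cells. The labels do not say whether the 3 libraries of a group were separate cultures or clones, and the WT titles share a single line name. The p-values therefore reflect variation among these libraries, possibly technical only, and effects of line or clone cannot be told apart from those of p53 loss.

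The naive state is the ground state of pluripotency found in the early epiblast and held in culture by a network of transcription factors that bind each other's genes. OCT4, encoded by Pou5f1, and SOX2 bind DNA together and form its centre, while NANOG, ESRRB, TFCP2L1, TBX3 and the KLF proteins reinforce it and connect it to outside signals: LIF through STAT3, and Wnt through relief of repression by TCF7L1. In stem cells OCT4 and SOX2 must be kept within limits, whereas NANOG, ESRRB and KLF4 vary between cells and can be reduced for a time without loss of identity. REX1, encoded by Zfp42, is a marker of the state that is lost early when cells leave it.

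Promoter windows of RefSeq (GRCm38.p6, 250 bases before the start of transcription) were present for 8 of the 10 genes, in 11 windows, and not for Klf5 and Tbx3. The windows of Nanog, Zfp42 and Sox2 are shown because they hold the core of the octamer bound by POU factors, TTTGCAT on either strand, which was found in 4.12% of all 32851 windows. Capitals mark that core, its extension to the OCT4-SOX2 composite element (the core, any base, then ACAA, in 0.0335% of all windows) and matches to the KLF motif GGGNGTGG (15.9% of all windows), both strands searched. The Nanog window lies at chr6:122707239-122707488 (plus strand), the Zfp42 window at chr8:43307010-43307259 (minus strand) and the Sox2 window at chr3:34649745-34649994 (plus strand). The starts are those of RefSeq and can differ from the gene starts used for expression, which for Sox2 is chr3:34650405. A further window each of Pou5f1 and Esrrb lies inside the gene.
Nanog: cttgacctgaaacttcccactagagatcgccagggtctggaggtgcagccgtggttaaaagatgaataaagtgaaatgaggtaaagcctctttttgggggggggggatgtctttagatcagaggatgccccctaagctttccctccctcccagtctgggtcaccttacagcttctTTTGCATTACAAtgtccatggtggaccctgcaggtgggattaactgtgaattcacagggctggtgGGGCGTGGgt
Zfp42: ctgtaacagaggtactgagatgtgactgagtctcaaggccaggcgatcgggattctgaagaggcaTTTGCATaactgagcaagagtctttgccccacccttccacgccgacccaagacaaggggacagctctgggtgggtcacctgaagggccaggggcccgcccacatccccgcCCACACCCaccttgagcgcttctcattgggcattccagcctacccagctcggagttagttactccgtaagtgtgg
Sox2: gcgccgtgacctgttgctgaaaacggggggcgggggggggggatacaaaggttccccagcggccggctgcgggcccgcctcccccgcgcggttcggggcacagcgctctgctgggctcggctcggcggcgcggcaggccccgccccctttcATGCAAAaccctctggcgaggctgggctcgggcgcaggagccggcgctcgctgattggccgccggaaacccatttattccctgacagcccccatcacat
In Nanog the composite element stood 75 to 64 bases before the annotated start of the window shown. A second Nanog window, with a later start, held the same element at -151 to -140 from that start, and a further KLF match. Among the 8 genes with windows, only Nanog held the full element within these 250 bases, and other stretches of the genes were not searched. Zfp42 held the full octamer ATTTGCAT (1.6% of all windows), and Sox2 the core on the opposite strand. The KLF motif was found in windows of Nanog, Pou5f1, Tfcp2l1 and Zfp42. No window of the 8 genes held the ESRRB motif AAGGTCA (4.08% of all windows), the paired CCAG motif of TFCP2L1 (2.78%) or the p53 decamer (7.13%). A match describes these letters only and is neither a bound site nor a cause of a change in RNA.

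Expression is given in FPKM, read fragments scaled to gene length and library size. Each gene has a single length, which need not be that of the transcripts present. The order of the genes, their sums and the size of ratios between them depend on these lengths, while comparisons of a gene between groups share the same length. Behind each library stood 11536412 to 21218976 reads rebuilt from these values, and behind each value of the 10 genes 2152 to 20107 reads. The replicate spread of the 10 genes, as a coefficient of variation, ran from 0.266% to 4.25% per group, where counting error would give 0.793% to 1.92%. Trp53, which encodes p53, was 64.5, 69.8 and 69.6 FPKM in WT and 9.71, 9.71 and 9.98 FPKM in p53-deficient libraries, in the direction of the labels. Each of 8 other stem cell markers was expressed in both groups (5 higher, 3 lower). Of 30 genes typical of fibroblasts, 27 were tested and all 27 fell (2 of them, Pdgfra and Twist2, passed the filter only through the WT libraries). The summed level of all 30 went from between 1632 and 1656 FPKM in WT to between 466 and 481 FPKM in p53-deficient libraries. None of the 30 was at 0 in all libraries of a group. On the scale of log2(FPKM + 1), which understates falls to low levels, Lox, Col5a2, Col3a1 and Thbs1 fell most, with log2 fold changes of -3.37, -2.78, -2.75 and -2.73. By the test described below, 31.3% of all genes tested were lower and 35.3% higher. Fewer cells of a type and less RNA per cell cannot be told apart in such bulk samples, and the part of this fibroblast signal in the results below was not tested.

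The proportions among the 10 factors differed between the groups. Summed over the 10 genes, the level was 1441 to 1447 FPKM in the WT libraries and 1444 to 1453 FPKM in the p53-deficient libraries. That near-equality holds for FPKM as deposited: with each library scaled by its median log2 ratio the sums were 1492 to 1497 and 1393 to 1410 FPKM, a difference of -6.26% in p53-deficient against WT cells. In FPKM as deposited 7 genes rose (Esrrb, Klf5, Tfcp2l1, Tbx3, Klf2, Pou5f1 and Klf4), Nanog and Zfp42 fell, and Sox2 did not pass the test. All 10 passed the filter of a mean of at least 0.5 FPKM. Differences were tested with limma on log2(FPKM + 1), p-values were adjusted over all 15144 genes by the Benjamini-Hochberg method, and those under 0.05 count as called. By that rule 66.5% of all genes tested were called, 35.3% higher and 31.3% lower, so 9 called genes of 10 stand against a high background. When each library was scaled by its median log2 ratio, 5 factors were higher and 3 lower, beside 28.1% and 37.1% of all genes (65.2% in either direction), and with quantile normalization 6 and 2, beside 36.7% and 29.8%. With voom weights on rebuilt reads 7 were higher and 3 lower, beside 34.1% and 34.9% (68.9% in either direction). The groups did not overlap in 9 of the 10 genes, 7 higher and 2 lower, against 71.4% of all genes tested (37.7% higher, 33.7% lower). The median absolute log2 fold change was 0.27 among the 10 factors and 0.29 among all genes, so these factors did not move further than the typical gene. With FPKM as deposited Esrrb and Klf5 were both called and changed at least 1.5-fold on that scale, as were 22.5% of all genes (9.16% higher, 13.3% lower). Nanog, at a log2 fold change of -0.57, lay just short of 1.5-fold there and beyond it with median log2 ratio scaling (-0.67), quantile normalization (-0.64) and voom weights (-0.62).

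**Figure D1:**
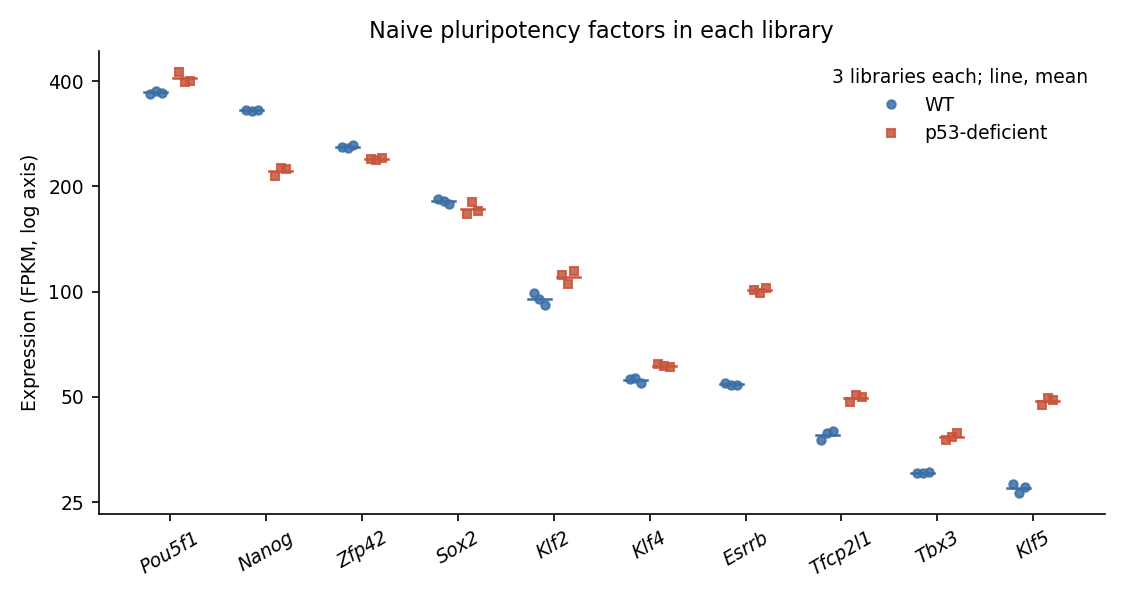
Expression (FPKM, log axis) of the 10 factors in each of 3 WT (circles) and 3 p53-deficient (squares) libraries, with lines at the means, in the order of WT level. Esrrb and Klf5 are higher in every p53-deficient library, Nanog is lower in each, and the points of Sox2 overlap.

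The order of the levels was the same in the 3 libraries of each group and differed between the groups. In WT it ran Pou5f1, Nanog, Zfp42, Sox2, Klf2, Klf4, Esrrb, Tfcp2l1, Tbx3 and Klf5, and only Klf4 and Esrrb had ranges that overlapped. In p53-deficient cells it ran Pou5f1, Zfp42, Nanog, Sox2, Klf2, Esrrb, Klf4, Tfcp2l1, Klf5 and Tbx3, where the ranges of Tfcp2l1 and Klf5 overlapped. Zfp42 and Nanog, Esrrb and Klf4, and Klf5 and Tbx3 thus exchanged places. Among 12248 protein-coding genes tested, Pou5f1 ranked 98 by WT mean and 91 by p53-deficient mean, and Nanog 114 and 195. Esrrb moved from rank 912 to rank 463 and Klf5 from 1937 to 1126.

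Pou5f1 (ENSMUSG00000024406, mm10 chr17:35506018-35510772, plus strand) encodes OCT4, the POU factor without which no pluripotent cells form. It was 367, 376 and 370 FPKM in WT and 425, 396 and 401 FPKM in p53-deficient libraries. Each p53-deficient library lay above each WT library, and replicate 1 was the highest. Mean levels of 371 ± 4.43 (WT) and 407 ± 15.5 FPKM (SD, n = 3 each) gave a log2 fold change of 0.13 (SE 0.03, limma adjusted p = 0.00914). The call was lost when each library was scaled by its median log2 ratio (0.04, adjusted p = 0.305). Exons of the antisense gene Gm19553, at a mean of 0.149 FPKM, overlap 14.1% of its exon length.

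Sox2 (ENSMUSG00000074637, chr3:34650405-34652461, plus strand) encodes the HMG-box partner of OCT4. Its WT libraries held 184, 182 and 179 FPKM and its p53-deficient libraries 167, 181 and 170 FPKM. The groups overlapped, since p53-deficient replicate 2 lay above WT replicate 3. The Sox2 log2 fold change of -0.07 had a 95% interval of -0.15 to 0.01 (limma adjusted p = 0.0962). Sox2 passed as lower after scaling by the median log2 ratio (-0.17, adjusted p = 0.00485), with voom weights on rebuilt reads (-0.12, adjusted p = 0.000771) and without p53-deficient replicate 2 (-0.11, adjusted p = 0.0124).

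Nanog (ENSMUSG00000012396, chr6:122707489-122714633, plus strand), a homeobox factor that can sustain self-renewal without LIF when its level is raised, was the factor that fell most. In WT it measured 330, 329 and 331 FPKM and in p53-deficient libraries 214, 225 and 224 FPKM. No p53-deficient library came near the WT range. The mean went from 330 ± 0.879 to 221 ± 6.09 FPKM, 32.9% lower, with a log2 fold change of -0.57 (SE 0.03, limma adjusted p = 4.06e-06). Among all genes tested 24.0% had a larger absolute log2 fold change. Its processed pseudogene Nanog-ps1 was listed at 0 in all 6 libraries.

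Zfp42 (ENSMUSG00000051176, chr8:43295063-43306980, minus strand) encodes the zinc finger protein REX1. It was 260, 257 and 263 FPKM in WT and 239, 238 and 242 FPKM in p53-deficient libraries, a narrow gap without overlap. The level was 7.83% lower, with a log2 fold change of -0.12 (SE 0.02, limma adjusted p = 0.00224). A processed pseudogene on chromosome 15, Zfp42-ps1, matched 266 bases of the Zfp42 transcript at 98.1% identity and was itself at 71.1 and 73.1 FPKM, without passing. The sources used here do not say how reads that match both genes were assigned.

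Nanog, Zfp42 and Sox2, of which Sox2 was not called, were the factors with negative fold changes. They are also the genes whose windows above hold the TTTGCAT core. The windows of Pou5f1, Klf2, Klf4, Esrrb and Tfcp2l1 lacked those letters. All of these were called higher with FPKM as deposited, but Pou5f1 and Klf4 were not with median log2 ratio scaling. Other motifs were searched as well, and the KLF motif lay in genes of both directions: Nanog and Zfp42, and Pou5f1 and Tfcp2l1. So did the SOX motif ACAATG (10.7% of all windows), found in windows of Nanog and Pou5f1. With 8 genes this is a description and no test was made.

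Esrrb (ENSMUSG00000021255, chr12:86361117-86521628, plus strand), an orphan nuclear receptor and a target of NANOG that can stand in for it in self-renewal, rose most. WT libraries held 54.8, 54.2 and 54.1 FPKM and p53-deficient libraries 101, 99.3 and 103 FPKM. The lowest p53-deficient value was far above the highest WT value. Means of 54.4 ± 0.379 and 101 ± 1.61 FPKM gave a level 85.9% higher and a log2 fold change of 0.88 (SE 0.02, limma adjusted p = 3.29e-07). A larger absolute change was found in 12.4% of all genes tested. Esrrb therefore moved against Nanog: for 330 FPKM of Nanog and 54.4 of Esrrb in WT there were 221 and 101 in p53-deficient cells.

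The KLF genes encode zinc finger factors that bind GC-rich elements and overlap in function in stem cells, with Klf4 downstream of STAT3 and Klf2 downstream of MEK inhibition. Klf5 (ENSMUSG00000005148, chr14:99298691-99315036, plus strand) was 28.1, 26.6 and 27.7 FPKM in WT and 47.4, 49.7 and 49.0 FPKM in p53-deficient libraries, with no overlap. It rose by 77.4%, with a log2 fold change of 0.80 (SE 0.03, limma adjusted p = 1.93e-06). Klf2 (ENSMUSG00000055148, chr8:72319033-72321656, plus strand) was 98.9, 95.4 and 91.5 FPKM in WT and 111, 105 and 115 FPKM in p53-deficient libraries, with a log2 fold change of 0.21 (SE 0.04, limma adjusted p = 0.00407). Here the spread within groups was wider and the gap between them smaller. After scaling by the median log2 ratio Klf2 was still higher, at 0.11 and limma adjusted p = 0.0486.

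Klf4 (ENSMUSG00000003032, chr4:55527143-55532466, minus strand), a reprogramming factor that fibroblasts also express, was 56.4, 56.5 and 54.7 FPKM in WT and 61.9, 61.1 and 61.0 FPKM in p53-deficient libraries. Its log2 fold change of 0.13 (SE 0.02, limma adjusted p = 0.00203) missed the threshold with median log2 ratio scaling (0.04, adjusted p = 0.200) and with quantile normalization (0.03, adjusted p = 0.215). Summed, the 3 KLF genes went from 179 ± 4.79 to 220 ± 4.30 FPKM. The share of Klf5 in that sum was 14.9% to 15.9% in WT and 21.5% to 23.0% in p53-deficient libraries, while Klf4 went from a mean share of 31.3% to 27.8% and Klf2 from 53.3% to 50.06%.

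Tfcp2l1 (ENSMUSG00000026380, chr1:118627945-118685168, plus strand) encodes a grainyhead-like factor at which LIF and Wnt signals meet. Its level was 37.7, 39.4 and 39.8 FPKM in WT and 48.3, 50.7 and 50.04 FPKM in p53-deficient libraries, which did not overlap. It rose by 27.4%, with a log2 fold change of 0.34 (SE 0.03, limma adjusted p = 9.57e-05). Tbx3 (ENSMUSG00000018604, chr5:119670669-119684724, plus strand), a T-box factor that can replace LIF when supplied, was 30.3, 30.3 and 30.5 FPKM in WT and 37.6, 38.4 and 39.3 FPKM in p53-deficient libraries. The WT libraries were almost identical and all p53-deficient libraries were higher, with a log2 fold change of 0.33 (SE 0.02, limma adjusted p = 3.60e-05). Tbx3os2, a non-coding gene on the other strand 371 bases beyond Tbx3, had group means of 0.200 (WT) and 1.02 FPKM, and passed the filter only through the p53-deficient libraries.

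**Figure D2:**
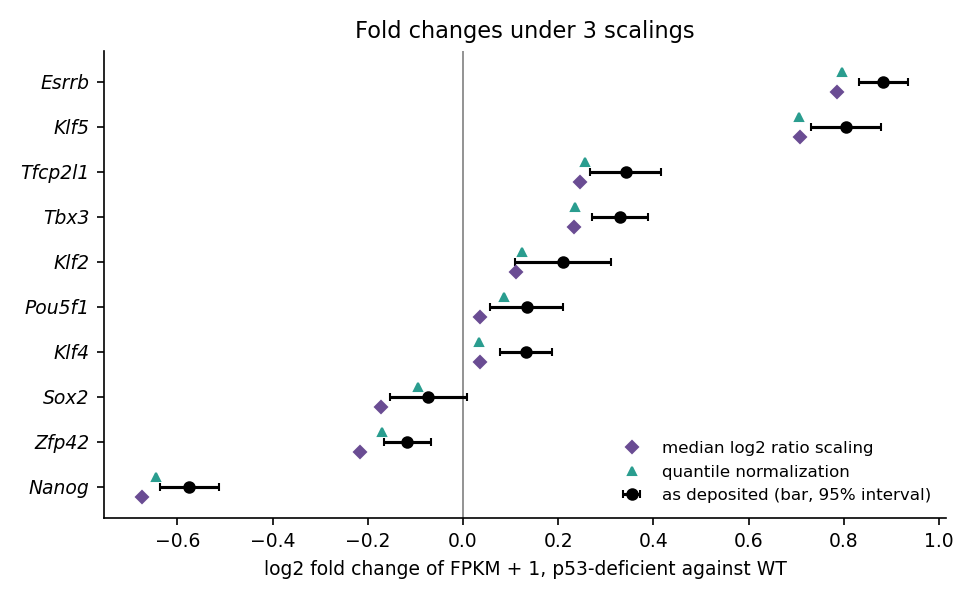
Log2 fold changes of FPKM + 1 in p53-deficient against WT cells for the 10 factors, with 95% intervals (black), and under median log2 ratio scaling (diamonds) and quantile normalization (triangles). Esrrb, Klf5, Tfcp2l1, Tbx3 and Klf2 lie above 0 and Nanog and Zfp42 below 0 under each scaling, while Pou5f1 and Klf4 come close to 0 after rescaling.

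Ratios between factors within a library do not change when all genes of the library are multiplied by 1 factor, though quantile normalization can alter them. Nanog per Pou5f1 was 0.898, 0.876 and 0.893 in WT and 0.504, 0.568 and 0.560 in p53-deficient libraries, a log2 difference of -0.71 (exact permutation p = 0.1, two-sided, the smallest that 3 against 3 allows, and 0.133 adjusted over 4 ratios). All p53-deficient libraries lay far below the WT libraries. Sox2 per Pou5f1 was 0.502, 0.485 and 0.482 in WT and 0.393, 0.456 and 0.425 in p53-deficient libraries, again without overlap (log2 difference -0.21, exact permutation p = 0.1, adjusted 0.133). OCT4 and SOX2 act as a pair on DNA. In these libraries the ratio of Sox2 to Pou5f1 FPKM was lower in p53-deficient cells, though with 3 libraries per group this test cannot reach p under 0.05. The summed KLF level per Pou5f1 was 0.4693 to 0.4998 in WT and 0.519 to 0.560 in p53-deficient libraries (log2 difference 0.17, exact permutation p = 0.1, adjusted 0.133). Klf4 per Klf2 overlapped, with means of 0.587 ± 0.0148 and 0.556 ± 0.0237 (exact permutation p = 0.2, n = 3 per group, adjusted 0.2).

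**Figure D3:**
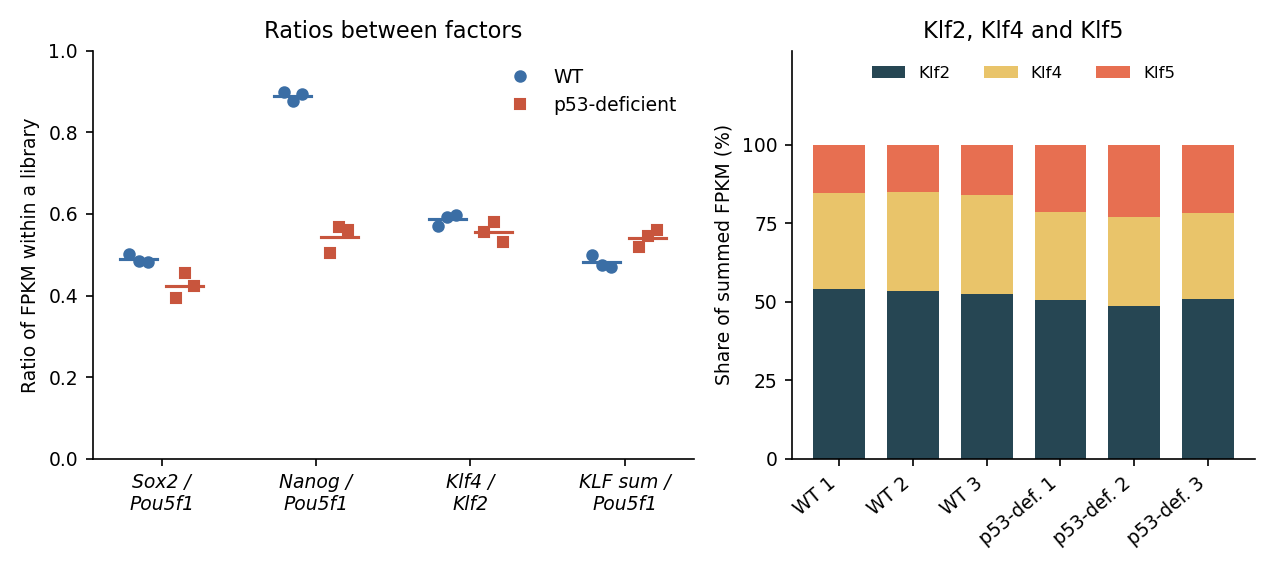
Left, ratios of FPKM within each of 3 WT (circles) and 3 p53-deficient (squares) libraries, with lines at the means. Right, shares (%) of Klf2, Klf4 and Klf5 in their summed FPKM in each library. Mean Nanog per Pou5f1 is 0.889 in WT and 0.544 in p53-deficient libraries, and the mean Klf5 share is 15.4% and 22.1%.

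Related factors of the same families were mostly expressed at lower levels than the 10 genes. Of 45 relatives 30 were tested, and 13 were higher, 11 lower and 6 not called, against 35.3% and 31.3% among all genes. Of the 13, Pou2f3, Pou4f2 and T passed the filter only through the p53-deficient libraries. The balance turned to 11 higher and 15 lower with median log2 ratio scaling, and was 13 and 14 with voom weights. Klf9 was the most abundant other KLF gene and dropped from 43.5 ± 0.424 FPKM to 29.9 ± 0.981 FPKM (-0.53 on the log2 scale), so it lay above Klf5 in WT and below it in p53-deficient cells. In the KLF family 5 of 11 tested relatives rose and 5 fell. Esrra, the only tested relative of Esrrb, fell from 14.6 ± 0.595 to 8.75 ± 0.528 FPKM (-0.68), opposite to Esrrb. Yy1, related to Zfp42, rose from 19.1 ± 0.510 to 28.6 ± 0.422 FPKM (0.56), and Ubp1, related to Tfcp2l1, rose from 24.9 ± 0.325 to 29.7 ± 0.489 FPKM (0.24). The most abundant relatives of Sox2 and Pou5f1, Sox12 and Pou2f1, were at 11.5 and 6.15 FPKM in WT and did not pass. With median log2 ratio scaling both passed as lower (Sox12 -0.14, limma adjusted p = 0.0376, and Pou2f1 -0.22, limma adjusted p = 0.0165), and Pou2f1 also with voom weights (-0.21, adjusted p = 0.000343). Eomes, the most abundant relative of Tbx3, rose from 1.43 ± 0.172 to 2.88 ± 0.232 FPKM (0.68), a low level.

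Other genes of the naive network also went in both directions. Of 25 genes tested 15 rose, 9 fell and Nr5a2 was not called, beside 35.3% higher and 31.3% lower among all genes. Their median log2 fold change was 0.25, where the median of all genes tested was 0.03. Utf1, a chromatin-associated factor, rose from 61.6 ± 3.83 to 303 ± 19.4 FPKM, and Eras, an embryonic RAS-like gene, rose from 13.6 ± 1.10 to 58.7 ± 2.07 FPKM (log2 fold changes 2.28 and 2.03). Gbx2, a homeobox gene induced by LIF, rose with 1.95, although 43.5% of its exon length overlaps D130058E05Rik. Dppa3 (Stella), a maternal factor that protects DNA methylation in the zygote, fell with -1.89. Nr5a2, a nuclear receptor that acts with ESRRB, was 11.2 ± 0.522 and 11.1 ± 0.546 FPKM. The lists share genes, so their counts are not separate observations. These 25 include the 8 stem cell markers above, Utf1, Dppa4, Fbxo15 and Fgf4 of the next list, and Zfp281 of the exit factors.

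Genes outside the 10 that carry a known OCT4-SOX2 element did not move as a group. Of 6 such genes Utf1 and Dppa4 rose, Lefty1, Fbxo15 and Fgf4 fell, and Spp1 was 346 ± 2.15 and 366 ± 14.9 FPKM without passing. The shares of all genes tested were 35.3% higher and 31.3% lower. Their log2 fold changes ran from -4.20 for Lefty1 to 2.28 for Utf1. Lefty1 matches Lefty2 at 91.4% identity over 71.4% of its transcript. Lefty2 itself went from a mean of 80.1 FPKM in WT to 4.85 FPKM in p53-deficient libraries, and the part of read assignment was not tested. Dppa4 rose with 0.66, and its pseudogene Gm14058 matches 36.0% of the Dppa4 transcript. Fgf4 and Fbxo15 fell by 0.15 and 0.20 on the log2 scale.

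Of the genes that bring LIF signals to Klf4, Tfcp2l1 and Gbx2, 4 of 8 rose, 3 fell and Il6st was not called. These counts stand beside 35.3% higher and 31.3% lower among all genes tested. Socs3, the feedback inhibitor induced by STAT3, rose from 13.5 ± 0.876 to 57.0 ± 1.95 FPKM (log2 fold change 2.00). Lifr, the LIF receptor, rose with 0.90. The PIM kinase genes, both induced by STAT3, went opposite ways: Pim3 rose with 0.84 and Pim1 fell from 59.7 ± 1.34 to 44.3 ± 0.715 FPKM (-0.42). Stat3 rose with 0.52, and Jak1, the kinase upstream of it, fell with -0.30. Lif itself dropped from 8.06 ± 0.227 FPKM to 0.936 ± 0.313 FPKM (-2.24). Fibroblasts make LIF, and the fibroblast genes fell in the same libraries; the part of that in this result was not tested. Il6st, the shared receptor subunit gp130, was 10.2 ± 0.299 and 10.8 ± 0.264 FPKM.

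On the Wnt side, 5 of 9 tested genes rose and 3 fell, beside 35.3% and 31.3% of all genes. Axin2, a direct target of the pathway, rose with 0.54, Tcf7 with 0.52, Tcf7l2 with 0.46 and Axin1 with 0.40. Ctnnb1, which encodes β-catenin, was 108 ± 1.304 and 110 ± 1.14 FPKM without passing, but passed as lower with median log2 ratio scaling (-0.07, limma adjusted p = 0.0141) and with quantile normalization (-0.07, limma adjusted p = 0.0155), where 4 of the 9 were lower. Among 12 genes linked to exit from the naive state, whether they promote or oppose it (the exit factors), 7 rose, 3 fell and 2 were not called. The same shares of all genes stand beside these counts. But after scaling by the median log2 ratio 3 rose and 4 fell, beside 28.1% and 37.1% of all genes. Rbpj, the DNA-binding partner of Notch, rose from 7.41 ± 0.196 to 28.7 ± 0.549 FPKM (log2 fold change 1.82). Its processed pseudogene Rbpj-ps3, 99.7% identical over 26.3% of the Rbpj transcript, went the other way, from 38.3 to 7.60 FPKM, so the level of Rbpj is uncertain and the part of read assignment was not tested. Zfp281 and Chd4 rose with 0.76 and 0.74, Fnip1 fell with -0.36, and Folr1 was at 45.8 ± 1.47 and 48.6 ± 1.42 FPKM. Of genes of the formative and primed epiblast, the states that follow the naive state, 7 of 11 tested fell and 4 were called higher, beside 31.3% and 35.3% of all genes, with a median log2 fold change of -0.32. Among those of at least 5 FPKM 2 fell and 1 rose. Pou3f1 (OCT6) rose with 1.40, while Zic2 and Sox4 fell with -1.39 and -1.22. T (Brachyury), with group means of 0.164 ± 0.0860 (WT) and 1.51 ± 0.143 FPKM, is among the 4 but passed the filter only through the p53-deficient libraries. Exons of Gm26735, listed at 0 FPKM, cover 54.6% of those of Sox4.

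**Figure D4:**
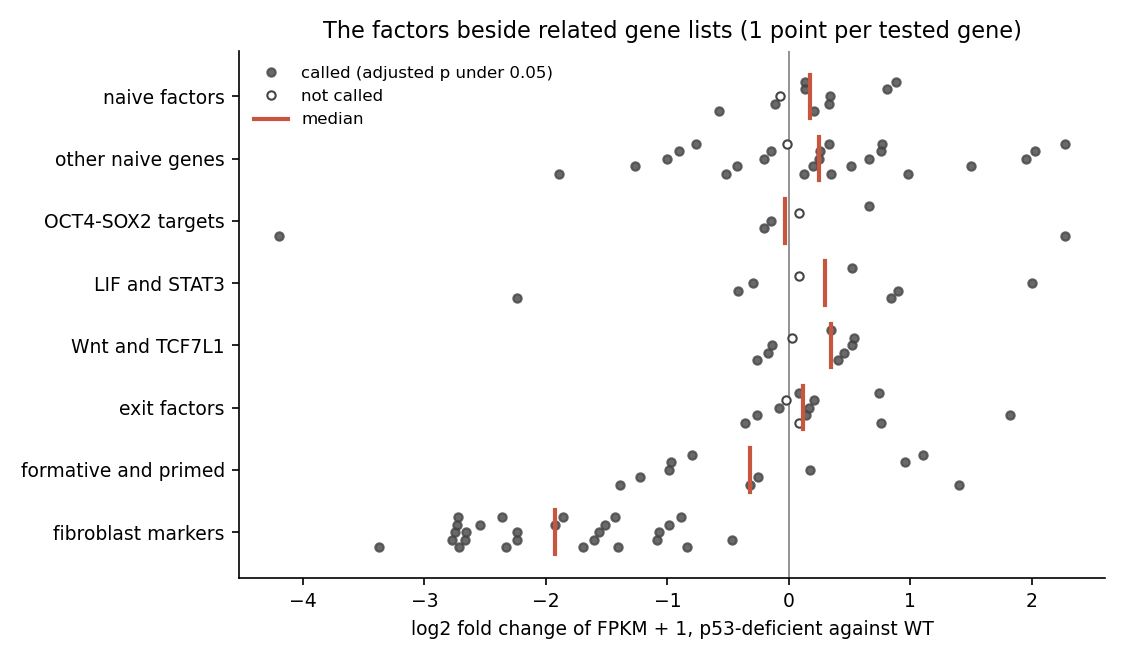
Log2 fold changes of FPKM + 1 for each tested gene of the 10 factors and of 7 related lists (filled, called; open, not called), with a bar at each median. The 10 factors lie between -0.57 and 0.88, inside the spread of the other naive genes, and all 27 fibroblast markers lie below 0.

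Nanog sits in a cluster of genes expressed in pluripotent and germ cells, and 10 other genes within 200 kb of it were tested. Of these 5 fell, 1 rose and 4 were not called, beside 31.3% lower and 35.3% higher (66.5% called) among all genes tested. Slc2a3, a glucose transporter gene that lies 13176 bases beyond Nanog, dropped from 232 FPKM to 134 FPKM (-0.78 on the log2 scale), and Dppa3, 77217 bases before it, fell from 51.03 to 13.04 FPKM. Apobec1, Mfap5 and Foxj2 fell with -0.90, -0.93 and -1.02, at WT levels of 5.46 FPKM or less. Gdf3, a TGF-β family ligand of the same cluster, went the other way, from 45.1 to 52.5 FPKM (0.21). The 702 tested genes of chromosome 6 had a median log2 fold change of 0.04, so the chromosome as a whole did not fall with Nanog. Mfap5 is a matrix gene of fibroblasts, and the part of the fibroblast signal in its fall was not tested.

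**Figure D5:**
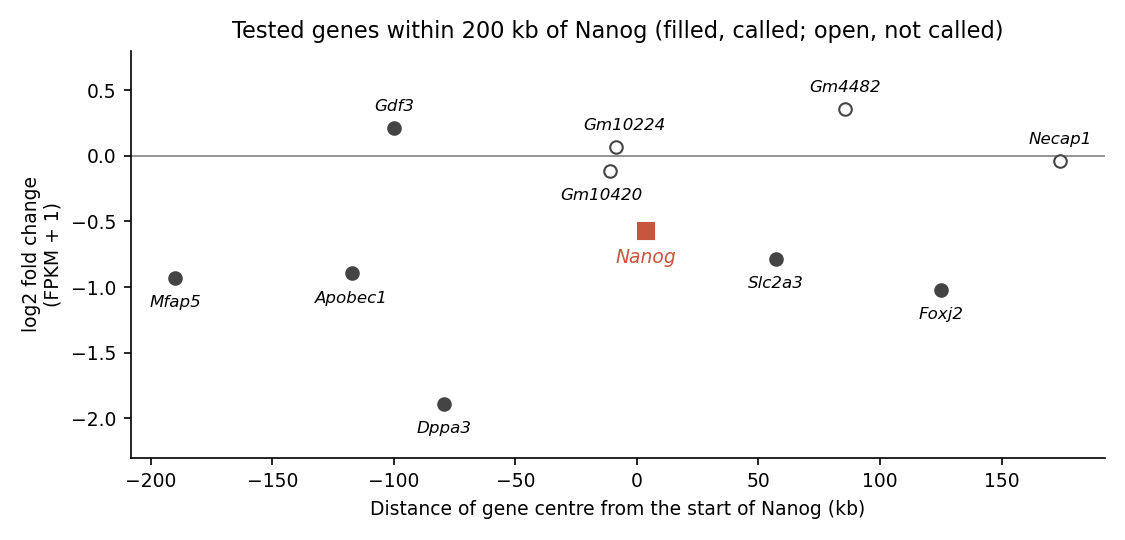
Log2 fold change of FPKM + 1 (vertical) against the distance of each gene's centre from the start of Nanog in kb (horizontal) for the 10 tested neighbours (circles; filled, called) and Nanog (square). Slc2a3, Dppa3, Apobec1, Mfap5 and Foxj2 lie below 0 and Gdf3 above.

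Around the other factors the counts were small and varied, and they stand beside 35.3% higher and 31.3% lower among all genes tested. Klf2 and Zfp42 are both on chromosome 8, whose 786 tested genes had a median of 0.02, yet Klf2 rose and Zfp42 fell. Near Zfp42, Triml2 and Triml1 rose with 0.19 and 0.32. Around Klf2 7 of 13 tested neighbours rose and 2 fell, and around Pou5f1 5 of 10 rose and 4 fell. Among those that rose, Hsh2d near Klf2 and Cdsn near Pou5f1 passed the filter only through the p53-deficient libraries. Among those that fell, 2300002M23Rik near Pou5f1 passed it only through the WT libraries. Around Esrrb, and likewise around Tfcp2l1, 1 of 4 rose and 1 fell. Both tested neighbours of Klf5 rose, as did 1 of 2 near Klf4. Near Sox2, which was not called, 2 of 3 fell and none rose. Near Tbx3, 2 of 3 were called higher, Tbx3os2 among them.

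By root mean square difference of log2(FPKM + 1) over the 6 libraries, the protein-coding genes nearest to Pou5f1 were Anp32b (0.046), Set (0.051) and Eif4a1 (0.060). Nearest to Sox2 were Rps24 (0.047), Eif3a (0.052) and Lamp1 (0.062), and nearest to Nanog were Pgk1 (0.092), Pcbp1 (0.125) and Calr (0.134). Anp32b, Set, Eif4a1, Pgk1 and Calr share sequence with pseudogenes in the table, of which Eif4a-ps4 (263 to 285 FPKM by group mean) and Gm9531, a copy of Set (52.0 to 54.4 FPKM), were at high levels. Pgk1 went from 324 ± 1.71 to 237 ± 9.72 FPKM. These genes are alike in level and difference over 6 libraries of 2 groups only.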

How the data were processed

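RNA from 6 libraries was measured, 3 per group, from poly-T selected mRNA with a kit that is not stated to mark the strand, per the labels' protocols. The deposited values are FPKM per gene and library, which the authors made; HISAT2 2.0.5, featureCounts 1.5.0-p3 and mm10 are named, per the submitters' processing notes, with no roles given. Multiplied by gene length, 100% of the values above 0 were whole multiples of a step (tolerance 0.001), so reads were rebuilt. Coordinates of the 10 genes equalled those of GENCODE M21.

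Genes with a mean of at least 0.5 FPKM entered the test as log2(FPKM + 1), so fold changes of low genes are understated. The comparison used limma 3.58.1 (R 4.3.3) with a variance trend, two-sided, after the fit had been tested on simulated reads. Fold changes named without a level passed this test at an adjusted p under 0.05. Errors are SD over 3 libraries. Ratios were compared with an exact permutation test. Copies of genes were sought among GENCODE transcripts with BLAST+ 2.17.0 (at least 90% identity over 100 bases and 10% of the transcript). Figures were drawn with matplotlib 3.10.9.

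The 10 genes and the lists were chosen with earlier results of these data known. Named were the 10 genes, up to 4 called genes of largest change and the most abundant uncalled gene of each list, the most abundant relative per family, the 3 nearest genes to Pou5f1, Sox2 and Nanog, and Trp53. Fgf4, Pim1, Stat3, Jak1, Pou2f3, Pou4f2, Pdgfra, Twist2 and genes near the 10 were named after their values were seen. Of 30 fibroblast genes, Ccn2 was matched by its older symbol Ctgf. Alternatives were another pseudocount, filters, scalings, no variance trend, the replicate block, voom weights, protein-coding genes only, a stricter threshold, FPKM + 1 in the ratios and each library left out in turn.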

Additional observations from a re-analysis of the deposited data

How the results depend on the processing

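The 10 factors were recomputed under 16 alternatives each. No factor changed direction, and 154 recomputed calls stayed on their side of the threshold; the 6 others were calls of Pou5f1, Klf4 and Sox2 given above. The log2 fold change of Nanog ranged from -0.67 to -0.55, that of Esrrb from 0.78 to 0.89 and that of Klf5 from 0.71 to 0.82. Without each library in turn 7 factors were higher and 2 to 3 lower, the third being Sox2 without p53-deficient replicate 2. The titles number the replicates of both groups, but same-numbered libraries did not deviate together (correlations -0.0328, 0.0142 and 0.00556); with the replicate block 7 factors were higher and 2 lower. Ratio differences, libraries left out in turn, ranged from -0.74 to -0.66 for Nanog, -0.26 to -0.15 for Sox2, 0.14 to 0.20 for the KLF sum, each per Pou5f1, and from -0.11 to -0.05 for Klf4 per Klf2.

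With a mean FPKM of at least 5, which leaves fewer genes to test, 3 Wnt genes rose, 1 formative or primed gene rose and 2 fell, and 5 family relatives rose and 6 fell. Under median log2 ratio scaling 3 exit factors rose. Scaled in that way, an alternative chosen after seeing the data, the summed level of the 10 factors differed by -6.26% between the groups, against 0.400% as deposited. Of genes that were not called with FPKM as deposited, the Nr5a2 log2 fold change ranged from -0.0479 to 0.0252 with libraries left out in turn and turned sign without WT replicate 1 (0.0122) and without p53-deficient replicate 1 (0.0252). Under median log2 ratio scaling the sign turned for Spp1 (-0.0176), Il6st (-0.0092), Ctnnb1 (-0.0735) and Folr1 (-0.0129), with quantile normalization for Ctnnb1 (-0.0720) and Folr1 (-0.0078), and with voom weights for Ctnnb1 (-0.0150); the cause was not tested. The planned protein comparison was not run. Depth was lowest in p53-deficient replicate 2.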
